A study of Mus musculus with 16 samples.

Results

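Labelled and unlabelled thymic epithelial cells with high surface MHC class II were compared 7 days after an Aire-lineage pulse, over 4 RFP+ MHCIIhi libraries and 4 RFP- MHCIIhi libraries out of the 16 in the study. All mice were C57BL6.Aire-CreERT2.Ai14 animals of both sexes aged 5 to 6 weeks, and all received 2 mg of tamoxifen, so both groups share the alleles and the drug. In these mice a tamoxifen-dependent Cre is driven from Aire, and Cre switches on a red fluorescent protein (RFP) for good. RFP+ MHCIIhi cells are therefore cells that expressed Aire during the pulse, or their descendants, that had high MHC class II when sorted. RFP- MHCIIhi cells carry no label, which does not exclude Aire expression before or after the pulse or a cell in which Cre did not act. Both groups were sorted as DAPI- CD45- EPCAM+ cells, a gate without a marker that separates cortical from medullary epithelium. Every library came from 12 pooled thymi. RFP+ MHCIIhi and RFP- MHCIIhi cells are called labelled and unlabelled below. The other 8 libraries, RFP+ MHCIIlo and RFP- MHCIIlo, enter the estimate of spread and are given as levels at the end.

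Medullary thymic epithelial cells (mTEC) display proteins of other organs to developing T cells, and Aire is the nuclear factor that opens many of these genes. As background, mTEC are known to divide before or around the start of Aire expression, to be post-mitotic while they express it, and later to lose Aire and take on features of keratinocytes, tuft cells, microfold cells and other peripheral epithelia. Cortical thymic epithelial cells (cTEC) instead use a proteasome and proteases of their own to select immature thymocytes, which lie in close contact with them.

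The RFP+ MHCIIhi libraries held 11.95 to 17.63 M counted reads and the RFP- MHCIIhi libraries 11.60 to 19.46 M (M, mega), from 129500 to 164000 and 114000 to 150900 sorted cells. Libraries of the same population had correlations of log2 CPM of 0.991 to 0.9944, and libraries of different populations 0.943 to 0.9534. Component 1 of the 500 most variable genes held 96.7% of the variance over the 8 libraries and separated the populations. Mitochondrial ribosomal RNA took 31.3 ± 1.43% of the reads in RFP+ MHCIIhi and 34.1 ± 1.86% in RFP- MHCIIhi (SD, n = 4 each). Both gates carried their sorting markers: Epcam was at 519.7 ± 32.2 CPM in labelled and 343 ± 16.7 CPM in unlabelled cells, and H2-Aa, an MHC class II chain, at 5381 ± 396 CPM in labelled and 4703 ± 157 CPM in unlabelled cells. CPM is a read count scaled by the TMM-adjusted library size. Differences are log2 of RFP+ MHCIIhi over RFP- MHCIIhi from edgeR's quasi-likelihood test, with p-values adjusted by Benjamini and Hochberg over all 19617 tested genes and called under 0.05. The labels call the replicates biological and do not say whether a pool of thymi gave both populations, and p-values measure the spread between libraries.

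Krt10, Serpina7 and Klk1b16 led the increases with the label, and Psmb11, Cxcl12 and Rag1 the decreases, among genes that averaged 20 CPM or more in 1 of the gates. In all, 4672 genes (23.8%) rose with the label and 4158 (21.2%) fell, together 45.0% of the 19617. More than 2-fold changes were called for 1686 genes upward (8.59%) and 1156 downward (5.89%). For 25.0% of genes all 4 RFP+ MHCIIhi libraries lay above all 4 RFP- MHCIIhi libraries, and for 25.0% below. The median difference over all tested genes was -0.02 on the log2 scale. With 45.0% of genes called, a call for a single gene says little by itself, and the lists below are read by their direction and size beside these shares. Among T cell receptor genes, 6 of 6 constant and 6 of 7 variable segments were lower and none higher, while among antibody constant genes 4 of 9 were higher and none lower.

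**Figure D1:**
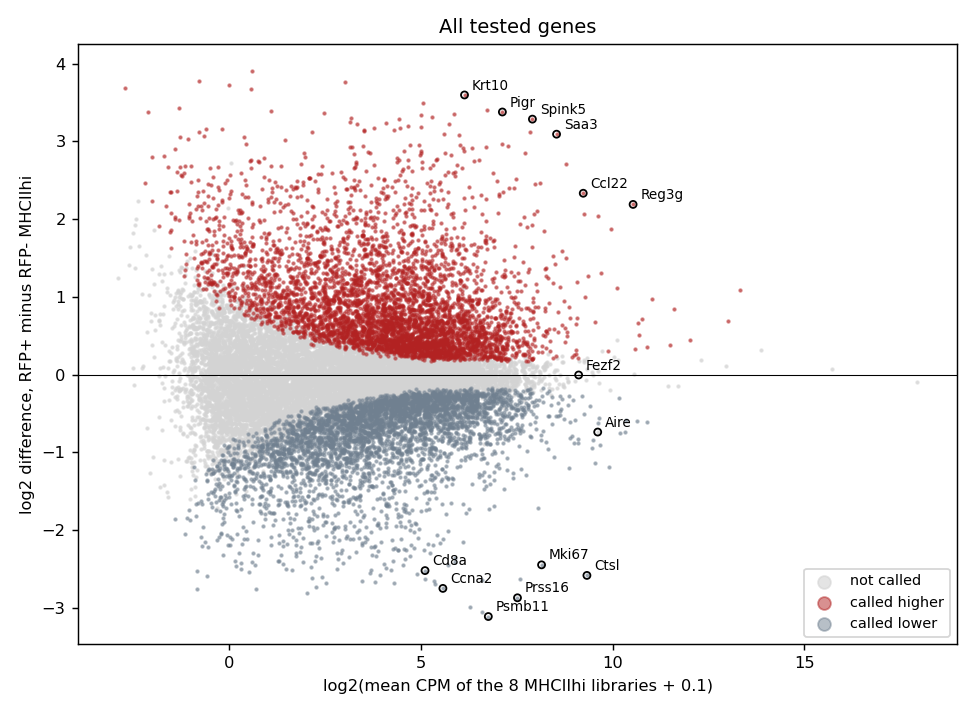
Difference of each of 19617 tested genes (y axis, log2 of RFP+ MHCIIhi over RFP- MHCIIhi) against its mean level (x axis, log2 of mean CPM + 0.1 over the 8 MHCIIhi libraries). Red points are the 4672 called higher, slate points the 4158 called lower and grey points those not called, and circled genes are among those described in the text.

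Krt10, a keratin of suprabasal epidermis (ENSMUSG00000019761, chromosome 11, 99385254 to 99389364 on GRCm38), had the largest increase among the genes named by rule. It stood at 153, 135, 132 and 101 CPM in labelled replicates 1 to 4, and 12.0, 10.9, 8.60 and 11.1 CPM in unlabelled replicates 1 to 4 (log2 3.60, SE 0.20, adjusted p = 6.33e-13). Each labelled library was thus far above each unlabelled one. Pigr, the receptor that carries antibody across mucosal epithelium (ENSMUSG00000026417, chromosome 1, 130826684 to 130852249), was at 235, 269, 274 and 243 CPM in labelled replicates 1 to 4, and 24.4, 23.6, 24.2 and 25.8 CPM in unlabelled replicates 1 to 4 (log2 3.38, SE 0.11, adjusted p = 8.98e-17). Guca2b, the gut peptide uroguanylin (ENSMUSG00000032978, chromosome 4, 119656607 to 119658954), was at 69.4, 71.9, 70.9 and 74.1 CPM in labelled and 7.19, 6.45, 6.52 and 8.56 CPM in unlabelled libraries (log2 3.31, SE 0.14, adjusted p = 7.77e-15). The rule that named these 3 genes requires no overlap between the populations. Within the labelled libraries the SD was 21.4 CPM for Krt10, 19.3 CPM for Pigr and 1.98 CPM for Guca2b. The other 9 increases named by rule were Serpina7, which encodes thyroxine-binding globulin, Klk1b16, a tissue kallikrein, Dapl1, Calm4, a calmodulin-like gene of skin, Psapl1, Spink5, the skin protease inhibitor, Ces2e, a carboxylesterase, Vnn3, a pantetheinase, and Spink12. Their log2 differences were 3.18 to 3.50, with means of 30.7 to 436 CPM in labelled and 3.25 to 44.5 CPM in unlabelled cells. Klk1b16, Ces2e and the Spink genes have close relatives with which they may share reads.

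Every listed gene of the G2 and M phases of the cell cycle was lower in RFP+ MHCIIhi. All 28 of 28 fell, each more than 2-fold, with log2 differences of -2.75 to -1.72 and a median of -2.32, beside 21.2% of all tested genes called lower and 5.89% called more than 2-fold lower. In no gene of the list did the groups overlap, beside 25.0% of all genes with every labelled library below every unlabelled one. In bulk RNA, fewer dividing cells and less RNA of these genes per cell cannot be told apart. The summed level of the list was 361, 377, 396 and 415 CPM in labelled replicates 1 to 4, and 1919.8, 2102, 2058 and 2059 CPM in unlabelled replicates 1 to 4. The labelled gate thus held 0.190 times the summed level of the unlabelled gate, and the spread between libraries of a group was small beside that difference.

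For 4 of these genes the DNA just before the start is shown, taking the more upstream of the RefSeq and GENCODE starts. The genes are Mki67, the proliferation antigen, Top2a, the topoisomerase of dividing chromosomes, Ccnb1, the mitotic cyclin B1, and Cdk1, the kinase it activates. They are shown because promoters of late cell cycle genes are known to hold CCAAT boxes and, near the start site, a cell cycle homology region with the letters TTTGAA. The sequences are 120 bases of RefSeq promoters on GRCm38.p6, read on the gene's strand, 5′ to 3′, and capitals mark matches to CCAAT or TTTGAA or to their reverse complements ATTGG and TTCAAA.
Mki67, chr7:135716380-135716499, minus strand: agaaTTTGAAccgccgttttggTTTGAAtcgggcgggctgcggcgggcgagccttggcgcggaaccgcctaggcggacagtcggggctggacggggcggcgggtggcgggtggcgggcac
Top2a, chr11:99024190-99024309, minus strand: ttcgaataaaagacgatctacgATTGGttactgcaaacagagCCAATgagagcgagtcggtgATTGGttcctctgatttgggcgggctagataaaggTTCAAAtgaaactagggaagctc
Ccnb1, chr13:100786571-100786690, minus strand: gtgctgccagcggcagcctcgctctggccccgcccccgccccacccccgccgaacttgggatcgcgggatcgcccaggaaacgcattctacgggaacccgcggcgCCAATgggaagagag
Cdk1, chr10:69352939-69353058, minus strand: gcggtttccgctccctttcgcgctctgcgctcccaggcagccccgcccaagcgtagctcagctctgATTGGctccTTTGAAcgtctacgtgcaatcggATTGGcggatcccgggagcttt

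The Top2a stretch holds 3 CCAAT matches and 1 TTTGAA match, that of Cdk1 holds 2 and 1, that of Ccnb1 1 CCAAT match and that of Mki67 2 TTTGAA matches. The Ccnb1 and Cdk1 stretches end 84 and 26 bases before the RefSeq start, where the GENCODE gene begins. Bases left out there are not part of these counts, whereas the windows of 250 bases below run to the RefSeq start. RefSeq promoters were found for 22 of the 28 G2 and M genes, in 23 windows of 250 bases before the start. CCAAT or its reverse complement occurred in 19 of the 23 (82.6%), against 33.8% of all 32851 windows of the table. TTTGAA occurred in 8 of 23 (34.8%), against 5252 of all 32851 windows, and GCGGGAA, a form of the E2F site, in 0 of 23, against 3.82%. In the 23 windows of the G1 and S phase genes described next, CCAAT occurred in 17 (73.9%), TTTGAA in 3 (13.0%) and GCGGGAA in 7 (30.4%). CCAAT occurred in 8 of 14 windows of cTEC genes (57.1%) and 13 of 41 of cornified epithelium genes (31.7%), TTTGAA in 2 of 14 (14.3%) and 6 of 41 (14.6%), and GCGGGAA in 0 of 14 and 2 of 41 (4.88%). For the tuft cell genes described further on, the shares were 26.1%, 21.7% and 4.35% of 23 windows in the same order of motifs. CCAAT and TTTGAA can share a T, but no match overlaps another in the stretches printed. A match describes the letters, not a binding site.

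Mki67 (ENSMUSG00000031004, chromosome 7, 135689784 to 135716361) was at 86.8, 87.7, 88.1 and 89.4 CPM in labelled replicates 1 to 4, and 464, 497, 498 and 459 CPM in unlabelled replicates 1 to 4 (log2 -2.45, SE 0.25, adjusted p = 2.26e-08). The labelled libraries lay within 3 CPM of each other, and the unlabelled ones were more than 5-fold higher. Top2a was at 50.3, 54.4, 54.7 and 54.7 CPM in labelled replicates 1 to 4, and 315, 344, 328 and 334 CPM in unlabelled replicates 1 to 4 (log2 -2.62, SE 0.20, adjusted p = 2.55e-10). Ccnb1 was at 2.34, 2.22, 1.92 and 3.23 CPM in labelled and 10.8, 13.1, 14.4 and 13.7 CPM in unlabelled libraries (log2 -2.42, SE 0.24, adjusted p = 1.42e-08). Cdk1 was at 11.3, 11.8, 14.3 and 13.7 CPM in labelled and 62.2, 65.6, 53.6 and 69.3 CPM in unlabelled libraries (log2 -2.29, SE 0.18, adjusted p = 3.51e-10). Ccna2, the S and G2 phase cyclin A2, was the lowest of the list relative to the unlabelled gate, at 12.3 ± 1.40 CPM in labelled and 83.0 ± 6.23 CPM in unlabelled cells (SD, n = 4 each; log2 -2.75, SE 0.22, adjusted p = 3.22e-10). Among the 12 decreases named by rule were also Ube2c (-2.65, SE 0.23), a ubiquitin-conjugating enzyme of mitotic exit, the spindle genes Aspm (-2.65, SE 0.16), Hmmr (-2.63, SE 0.17) and Kif14 (-2.66, SE 0.23).

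Of 25 genes of the G1 and S phases, 24 fell and 0 rose, with a median of -1.48, beside 21.2% of all tested genes called lower. The exception was Ccne1, a cyclin E gene, at 4.06 ± 0.287 CPM in labelled and 5.10 ± 0.469 CPM in unlabelled cells (log2 -0.32, SE 0.21, adjusted p = 0.214). Mcm5, a subunit of the replicative helicase, was at 7.72, 7.58, 8.45 and 8.84 CPM in labelled replicates 1 to 4, and 24.3, 24.7, 27.2 and 27.8 CPM in unlabelled replicates 1 to 4 (log2 -1.67, SE 0.16, adjusted p = 5.28e-09). E2f1, an activator of S phase genes, fell by 1.82 on the log2 scale (SE 0.24, adjusted p = 1.44e-06) and Ccne2, the other cyclin E gene, by 1.28 (SE 0.21, adjusted p = 2.77e-05). Pcna, the replication clamp, differed less, at 20.7 ± 1.36 CPM in labelled and 32.0 ± 3.68 CPM in unlabelled cells (log2 -0.63, SE 0.11, adjusted p = 2.79e-05).

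Genes that hold cells out of the cycle did not move together. Of 21 genes of cell cycle entry and exit, 7 rose and 10 fell, beside 23.8% and 21.2% of all tested genes. The 10 that fell include Ccnd1, Ccnd2, Cdk4 and Cdk6, which drive entry. The 7 that rose were Cdkn1a, Cdkn1c, Cdkn2a, Cdkn2b, Rb1, Btg1 and Btg2, which restrain the cycle. Cdkn1b, Cdkn2c, Cdkn2d and Rbl1, which also restrain it, fell. Cdkn1c, which encodes the inhibitor p57, was at 221, 205, 207 and 206 CPM in labelled replicates 1 to 4, and 49.9, 50.9, 51.8 and 45.5 CPM in unlabelled replicates 1 to 4 (log2 2.08, SE 0.12, adjusted p = 2.09e-12). Cdkn1a, which encodes p21, was at 344, 311, 336 and 298 CPM in labelled and 146, 117, 123 and 118 CPM in unlabelled libraries (log2 1.35, SE 0.11, adjusted p = 2.88e-10). Both inhibitors were higher in each labelled library than in each unlabelled one, which held for 25.0% of all genes. In the list of 21, 7 genes separated in this direction and 9 in the other. Cdkn2b, the inhibitor p15, also rose (1.60, SE 0.09), whereas Cdkn2d (-0.93, SE 0.17) and Cdkn2c (-0.81, SE 0.13), inhibitors of the same INK4 family, fell. The D-type cyclin genes Ccnd1 (log2 -0.71, SE 0.11, adjusted p = 1.34e-05) and Ccnd2 (-0.95, SE 0.15) fell, and Ccnd3 was at 20.0 ± 1.47 CPM in labelled and 23.0 ± 6.06 CPM in unlabelled cells without a call. Of 15 genes of ribosome production and MYC, which accompany growth, 14 fell and 0 rose, with a median of -0.87. Ncl, nucleolin, was at 285, 269, 288 and 281 CPM in labelled replicates 1 to 4, and 676, 615, 607 and 686 CPM in unlabelled replicates 1 to 4 (log2 -1.20, SE 0.10, adjusted p = 1.19e-09). Myc was at 73.4 ± 1.37 CPM in labelled and 97.3 ± 4.35 CPM in unlabelled cells (log2 -0.41, SE 0.09, adjusted p = 0.00072). The gene without a call was Mycn, at 2.27 CPM in labelled and 3.94 CPM in unlabelled cells.

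**Figure D2:**
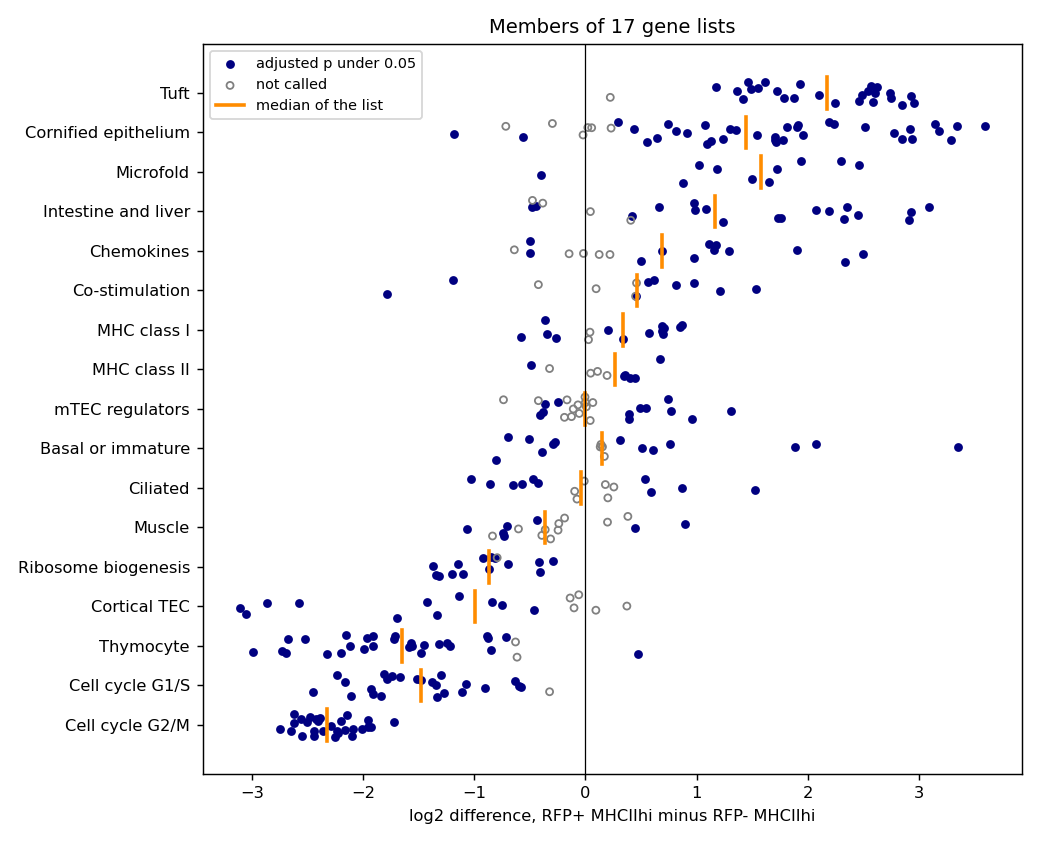
Differences of the tested members of 17 gene lists (x axis, log2 of RFP+ MHCIIhi over RFP- MHCIIhi), 1 row per list, with filled points for adjusted p under 0.05, open points for genes not called and an orange bar at the list's median. Tuft and cornified epithelium genes lie mostly right of 0, with medians of 2.18 and 1.45, and the G2 and M genes all lie left of it, with a median of -2.32.

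Most cortical epithelial genes on the list were lower in the labelled gate, with the largest falls in Psmb11, Cxcl12, Prss16 and Ctsl. Of 16 cTEC markers, 11 fell and 0 rose, with a median of -0.99, beside 21.2% of all tested genes called lower. Psmb11, the catalytic subunit of the thymoproteasome and the defining cTEC gene (ENSMUSG00000072423, chromosome 14, 54621433 to 54629556), was at 15.7, 19.0, 15.8 and 39.8 CPM in labelled replicates 1 to 4, and 210.2, 148, 147 and 272 CPM in unlabelled replicates 1 to 4 (log2 -3.11, SE 0.27, adjusted p = 1.9e-09). Prss16, the thymus-specific serine protease (ENSMUSG00000006179, chromosome 13, 22002173 to 22009742), was at 33.2, 36.7, 27.3 and 79.9 CPM in labelled and 314, 239, 299 and 438 CPM in unlabelled libraries (log2 -2.87, SE 0.31, adjusted p = 6.4e-08). Cxcl12, the chemokine that draws thymocyte progenitors (ENSMUSG00000061353, chromosome 6, 117168535 to 117181367), was at 16.1, 18.5, 17.0 and 32.3 CPM in labelled and 159, 140.4, 153 and 243 CPM in unlabelled libraries (log2 -3.06, SE 0.23, adjusted p = 2.04e-10). For all 3 genes replicate 4 was the highest library of both populations. The rule that named them requires that the populations do not overlap. Ctsl, the cortical cathepsin L, was at 184 ± 59.7 CPM in labelled and 1104 ± 395 CPM in unlabelled cells (SD, n = 4 each; log2 -2.58, SE 0.20, adjusted p = 2.27e-10).

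The other genes of the cTEC list differed by less than these 4. Ccl25, a chemokine for thymocytes, was at 447, 454, 532 and 620.4 CPM in labelled replicates 1 to 4, and 916, 769, 810.0 and 1194 CPM in unlabelled replicates 1 to 4 (log2 -0.84, SE 0.15, adjusted p = 6.38e-05). Foxn1, the master regulator of thymic epithelium, was at 209, 199, 198 and 188 CPM in labelled and 286, 266, 276 and 266 CPM in unlabelled libraries (log2 -0.46, SE 0.08, adjusted p = 6.37e-05). Tbata, a thymic stromal gene, was at 469 ± 42.7 CPM in labelled and 1034 ± 145 CPM in unlabelled cells. Enpep, which encodes the cortical surface marker Ly51, fell (log2 -1.43, SE 0.13, adjusted p = 4.76e-09). Members without a call included Pax9, Il7, Kitl and Dll4, with differences of -0.14 to 0.37. Il7, the thymocyte survival cytokine, was at 48.5 ± 2.09 CPM in labelled and 52.1 ± 2.11 CPM in unlabelled cells. Dll4, the Notch ligand, was at 29.5 ± 2.85 CPM in labelled and 22.7 ± 3.97 CPM in unlabelled cells. The summed level of the 16 genes was 1812, 1866, 1959 and 2338 CPM in labelled replicates 1 to 4, and 4829.9, 3999, 4269 and 6277 CPM in unlabelled replicates 1 to 4, and none of the 16 was at 0 in a library. The largest terms of the unlabelled sum were Ctsl, Tbata and Ccl25, at means of 1104, 1034 and 922 CPM, with Prss16 at 323 and Psmb11 at 194 CPM. The sum thus follows genes other than Psmb11 for the most part. The share of the cTEC list in the other differences was not tested.

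Transcripts of thymocytes were found in both CD45- gates and were lower in the labelled one. Of 30 thymocyte genes, 27 fell and 1 rose, with a median of -1.65, beside 21.2% and 23.8% of all tested genes. Rag1, the recombinase of antigen receptor genes (ENSMUSG00000061311, chromosome 2, 101638282 to 101649501), was at 13.9, 13.2, 15.7 and 26.5 CPM in labelled replicates 1 to 4, and 93.5, 101, 137 and 218 CPM in unlabelled replicates 1 to 4 (log2 -2.99, SE 0.31, adjusted p = 2.93e-08). Dntt, which adds bases at receptor joints, was at 7.56, 8.28, 8.34 and 20.0 CPM in labelled and 42.4, 55.6, 67.6 and 119 CPM in unlabelled libraries (log2 -2.70, SE 0.30, adjusted p = 8.73e-08). Cd8a was at 9.04, 7.99, 8.34 and 15.7 CPM in labelled and 40.9, 41.5, 57.4 and 94.8 CPM in unlabelled libraries (log2 -2.52, SE 0.29, adjusted p = 1.25e-07). Its partner chain Cd8b1 was at 4.60, 3.91, 3.90 and 8.84 CPM in labelled and 21.2, 24.4, 36.3 and 52.7 CPM in unlabelled libraries (log2 -2.67, SE 0.29, adjusted p = 5.7e-08). In these 4 genes replicate 4 again had the highest level in both populations. Rag1, Dntt and Cd8b1 were named by a rule that requires no overlap between the populations. Cd8a did not overlap either, beside 25.0% of all genes with every labelled library below every unlabelled one. Cd3e, a chain of the T cell receptor complex, was at 9.80 ± 3.29 CPM in labelled and 38.1 ± 15.5 CPM in unlabelled cells (log2 -1.97, SE 0.32, adjusted p = 1.82e-05). Ptcra, the pre-T alpha chain, was at 0.822 ± 0.329 CPM in labelled and 2.46 ± 0.644 CPM in unlabelled cells (log2 -1.57, SE 0.44, adjusted p = 0.00556).

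Ptprc, which encodes the CD45 used to gate leukocytes out, was at 21.9 ± 3.26 CPM in labelled and 60.0 ± 20.6 CPM in unlabelled cells. Cd5 (log2 -0.63, SE 0.28, adjusted p = 0.0675) and Cd2 (log2 -0.62, SE 0.38, adjusted p = 0.192) were not called. The summed level of the 30 genes was 389, 378, 392 and 538 CPM in labelled replicates 1 to 4, and 1004, 1117, 1498 and 2081 CPM in unlabelled replicates 1 to 4, and none of the 30 was at 0 in a library. Among the unlabelled libraries it ranged from 1004 to 2081 CPM while the summed G2 and M level ranged from 1919.8 to 2102 CPM. With replicate 4 of both populations left out together, all 28 G2 and M genes, 11 cTEC genes and 25 thymocyte genes were called lower. The part of thymocyte and cortical RNA in the cell cycle difference was not tested.

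**Figure D3:**
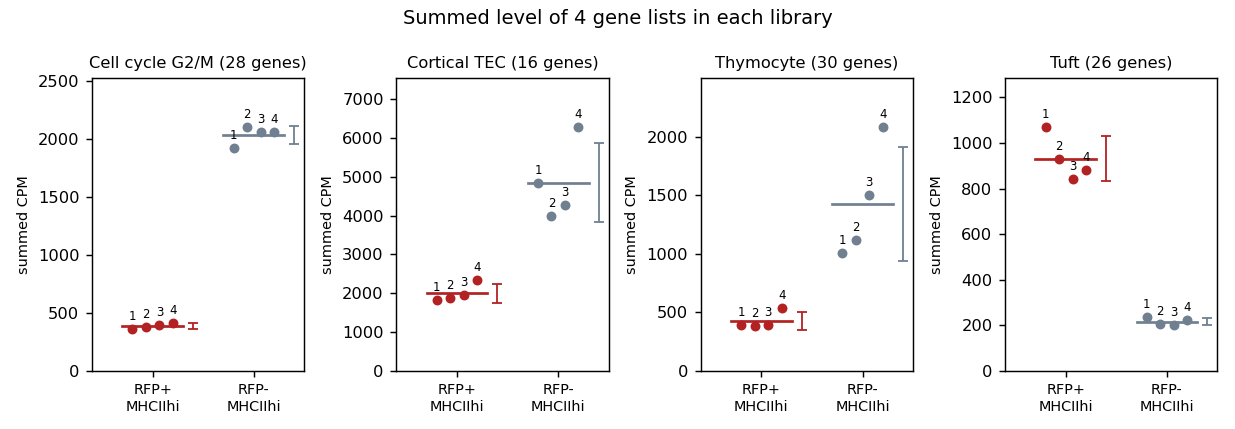
Summed CPM of 4 gene lists in each library, with RFP+ MHCIIhi left of RFP- MHCIIhi in each panel, points numbered by replicate, horizontal bars at the mean and whiskers of 1 SD (n = 4). G2 and M, cTEC and thymocyte sums are lower in RFP+ MHCIIhi and tuft sums higher, without overlap, and replicate 4 is the highest library of both populations for the cTEC and thymocyte lists.

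Aire and its partners differed by less than these groups. Aire (ENSMUSG00000000731, chromosome 10, 78030022 to 78043610) was at 543, 622, 588 and 594 CPM in labelled replicates 1 to 4, and 950.1, 1041, 1007 and 916 CPM in unlabelled replicates 1 to 4, so that each labelled library was below each unlabelled one. Such separation in this direction held for 25.0% of all tested genes. The Aire difference did not pass the test over all 16 libraries (log2 -0.74, SE 0.31, adjusted p = 0.0571), but passed when the fit used only the 8 MHCIIhi libraries (adjusted p = 2.17e-09). It also passed with DESeq2-type size factors, library totals, no low-count filter and a replicate block (adjusted p = 0.047, 0.0432, 1.09e-07 and 0.0202). In the other 11 of 16 alternatives Aire was not called. Over the 16 alternatives tried the adjusted p ran from 2.17e-09 to 0.157. In the MHCIIlo gates Aire was at 50.8 ± 25.4 CPM in labelled and 37.9 ± 23.5 CPM in unlabelled cells. Fezf2, the other known regulator of tissue-restricted antigens (ENSMUSG00000021743, chromosome 14, 12342094 to 12348189), was at 585, 561, 527 and 542 CPM in labelled replicates 1 to 4, and 565, 573, 603 and 480.1 CPM in unlabelled replicates 1 to 4, overlapping throughout, and the sign of its difference turned with the setting (SE 0.10, adjusted p = 0.979).

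Of 25 mTEC regulators and NF-kB pathway genes, 8 rose and 4 fell, beside 23.8% and 21.2% of all tested genes. No direction of the list is read from these counts, and in the fit of 8 libraries 7 fell. Tnfrsf11a, the receptor RANK that drives mTEC development, was at 209 ± 21.0 CPM in labelled and 203 ± 8.59 CPM in unlabelled cells (log2 0.043, SE 0.11, adjusted p = 0.779). The increases included Traf1 (log2 1.31, SE 0.13, adjusted p = 9.55e-09), a signalling adaptor induced by NF-kB, Rel (0.74, SE 0.07), an NF-kB subunit, and Prdm1 (0.96, SE 0.15), the repressor BLIMP1 known from terminal differentiation. The decreases were Traf6 (-0.41, SE 0.07), the adaptor downstream of RANK, Chd4 (-0.39, SE 0.10), Hipk2 (-0.37, SE 0.10) and Top1 (-0.24, SE 0.09), of which Chd4 and Top1 are known partners of Aire.

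Ligands by which mTEC engage T cells moved in both directions. Of 13 co-stimulation and checkpoint genes, 7 rose and 2 fell, with a median of 0.46, beside 23.8% and 21.2% of all tested genes. Cd86, a ligand of CD28, was at 67.1, 58.6, 71.6 and 79.9 CPM in labelled replicates 1 to 4, and 22.1, 20.1, 25.8 and 28.0 CPM in unlabelled replicates 1 to 4 (log2 1.53, SE 0.18, adjusted p = 2.04e-07). Cd80, the other CD28 ligand, was at 93.1, 93.2, 95.2 and 92.1 CPM in labelled and 61.4, 64.1, 61.9 and 55.8 CPM in unlabelled libraries (log2 0.62, SE 0.09, adjusted p = 6.38e-06). Cd274, the checkpoint ligand PD-L1, was at 253 ± 13.7 CPM in labelled and 171 ± 6.05 CPM in unlabelled cells (log2 0.56, SE 0.08, adjusted p = 2.74e-06). Cd70, the ligand of CD27, rose (log2 1.21, SE 0.18, adjusted p = 8.08e-06). Of the 2 that fell, 1 was Cd83, at 32.7 ± 6.75 CPM in labelled and 112 ± 26.4 CPM in unlabelled cells (log2 -1.78, SE 0.20, adjusted p = 7.63e-08). The other was Icosl, the ligand of ICOS, at 589 ± 134 CPM in labelled and 1347 ± 319 CPM in unlabelled cells (log2 -1.19, SE 0.29, adjusted p = 0.00146). Cd83 stabilises surface MHC class II and CD86 in dendritic cells and thymic epithelium.

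MHC class II genes, on whose surface product both gates were set, differed by small amounts. Of 10 genes, 5 rose and 1 fell, with a median of 0.27, beside 23.8% and 21.2% of all tested genes. The 5 were H2-Oa (log2 0.67, SE 0.14), H2-Ab1 (0.44, SE 0.15), H2-Ob (0.40, SE 0.10), H2-Eb1 (0.36, SE 0.14) and H2-DMb1 (0.34, SE 0.08). Only 3 rose without RFP+ MHCIIhi replicate 4, without RFP- MHCIIhi replicate 4, or with library totals in place of TMM. H2-Aa (log2 0.19, SE 0.13, adjusted p = 0.252) and Cd74, the invariant chain (log2 0.11, SE 0.15, adjusted p = 0.594), did not pass, although H2-Aa did in the fit of the 8 MHCIIhi libraries (adjusted p = 0.015), and the member that fell was Ciita, the class II activator (log2 -0.49, SE 0.09, adjusted p = 7.1e-05). Of 15 genes of MHC class I and its peptide supply, 9 rose and 4 fell, beside the same 23.8% and 21.2%. B2m, the class I light chain, was at 8996, 9803, 10699 and 11104 CPM in labelled replicates 1 to 4, and 5838, 6357, 6531 and 6365 CPM in unlabelled replicates 1 to 4 (log2 0.69, SE 0.10, adjusted p = 4.86e-06). Psmb8, an immunoproteasome subunit, was at 139 ± 9.24 CPM in labelled and 75.9 ± 6.20 CPM in unlabelled cells (log2 0.87, SE 0.09, adjusted p = 1.54e-08). The 4 that fell were Calr (-0.58, SE 0.09), Pdia3 (-0.36, SE 0.08), Erap1 (-0.35, SE 0.10) and Psmb10 (-0.26, SE 0.10). Of 13 lysosomal genes, 7 rose and 2 fell, beside the same 23.8% and 21.2%. Ctsd, cathepsin D, rose most (log2 1.34, SE 0.09, adjusted p = 2.15e-11). Ctss, the cathepsin that trims the invariant chain, was at 161 ± 20.7 CPM in labelled and 154 ± 11.1 CPM in unlabelled cells (adjusted p = 0.714).

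Chemokine genes of the medulla were among the abundant increases. Of 17 chemokine genes on this list, 10 rose and 2 fell, with a median of 0.69, beside 23.8% and 21.2% of all tested genes. Cxcl12 (log2 -3.06) and Ccl25 (-0.84) are chemokines counted on the cTEC list and not on this one, and both fell. Ccl22, a CCR4 ligand, was at 943, 947, 1036 and 1097 CPM in labelled replicates 1 to 4, and 187, 199, 189.9 and 222 CPM in unlabelled replicates 1 to 4 (log2 2.33, SE 0.20, adjusted p = 9.05e-10), a 5.04-fold difference. Ccl5, the chemokine RANTES, was at 325, 309.6, 378 and 369.7 CPM in labelled and 69.7, 97.4, 115 and 88.3 CPM in unlabelled libraries (log2 1.90, SE 0.23, adjusted p = 4.32e-07), and Ccl17, the other CCR4 ligand, also rose (1.12, SE 0.17). Cxcl11 (log2 -0.50, SE 0.12, adjusted p = 0.0012) and Cxcl10 (log2 -0.50, SE 0.17, adjusted p = 0.0222), both ligands of CXCR3, fell. The Cxcl10 call was lost without RFP+ MHCIIhi replicate 1 or 2 or RFP- MHCIIhi replicate 2 (adjusted p = 0.0558, 0.0577 and 0.0518). Of 17 interferon response genes, 7 rose and 1 fell, beside the same 23.8% and 21.2%. The 1 that fell was Gbp3 (log2 -0.57, SE 0.12, adjusted p = 0.00033). Isg15 was at 25.9 ± 2.63 CPM in labelled and 13.6 ± 1.06 CPM in unlabelled cells (log2 0.93, SE 0.11, adjusted p = 4.56e-07). Of 15 BCL2 family genes, which set the threshold of cell death, 6 rose and 3 fell, beside the same 23.8% and 21.2%. The protective Bcl2l1 rose (log2 0.77, SE 0.09, adjusted p = 1.93e-07) and Bcl2 fell (log2 -0.45, SE 0.08, adjusted p = 4.78e-05). The death activator Bcl2l11 was at 36.3 ± 2.65 CPM in labelled and 37.8 ± 1.99 CPM in unlabelled cells (log2 -0.059, SE 0.10, adjusted p = 0.683).

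**Figure D4:**
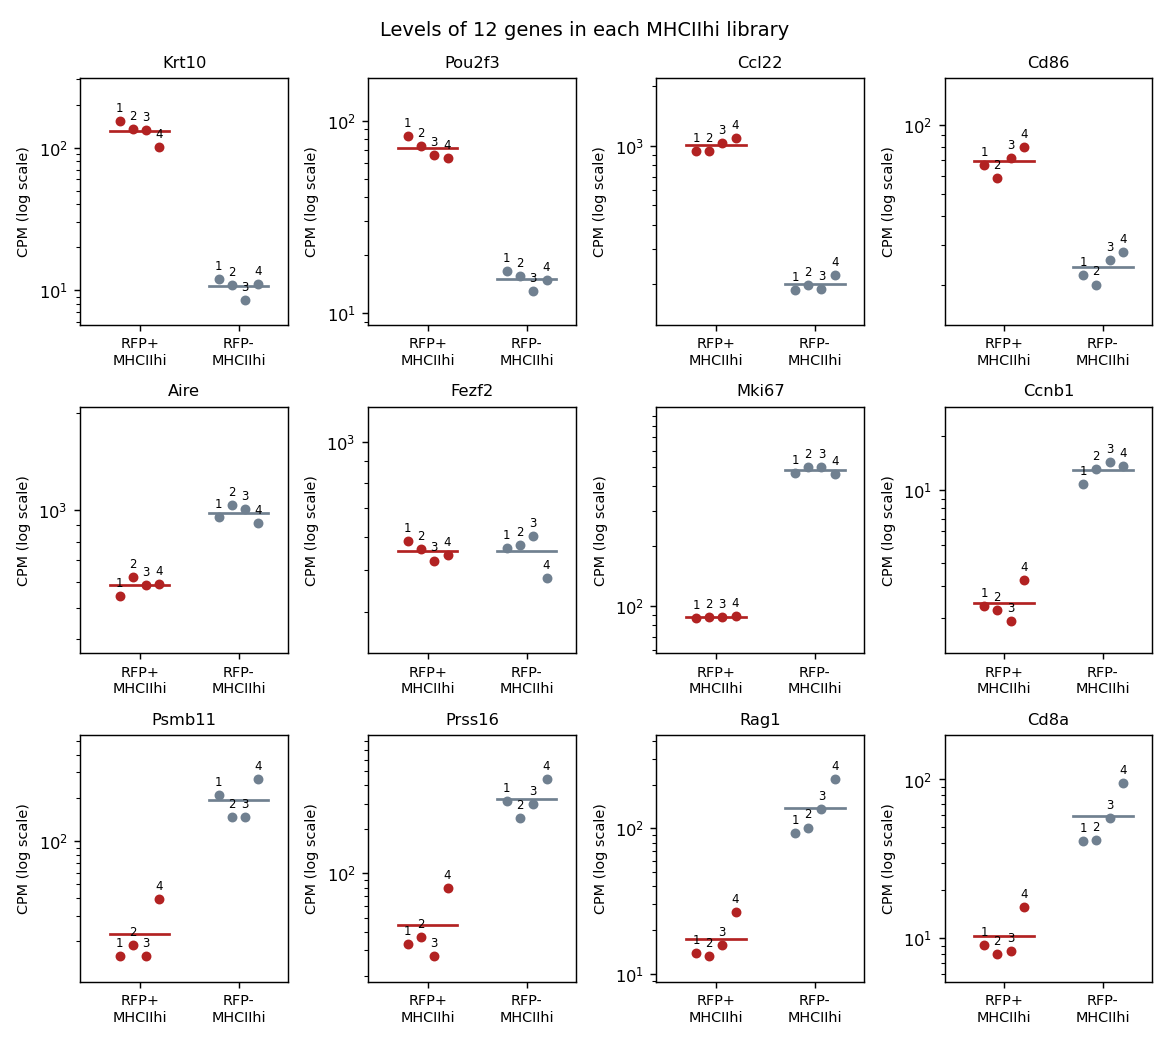
Level of 12 genes in each MHCIIhi library (y axis, CPM on a log scale), with RFP+ MHCIIhi left of RFP- MHCIIhi, points numbered by replicate and bars at the mean of 4 libraries. Krt10, Pou2f3, Ccl22 and Cd86 are higher in RFP+ MHCIIhi, Mki67, Ccnb1, Psmb11, Prss16, Rag1 and Cd8a are lower, Aire is lower in each library without passing the test, and Fezf2 overlaps.

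Genes of terminally differentiated keratinocytes were higher in the labelled MHCIIhi cells. Of 42 genes of cornified epithelium, 34 rose and 2 fell, with a median of 1.45, beside 23.8% of all tested genes called higher. The summed level was 3383, 2956, 3042 and 2736 CPM in labelled replicates 1 to 4, and 966, 931, 862 and 887 CPM in unlabelled replicates 1 to 4. Krtdap, a secreted protein of differentiating keratinocytes, was at 332, 258, 263 and 246 CPM in labelled replicates 1 to 4, and 36.7, 35.3, 36.3 and 35.3 CPM in unlabelled replicates 1 to 4 (log2 2.94, SE 0.12, adjusted p = 7.82e-15). Ivl, involucrin of the cornified envelope, was at 19.6, 15.7, 15.6 and 12.6 CPM in labelled and 4.50, 5.23, 4.91 and 4.71 CPM in unlabelled libraries (log2 1.72, SE 0.16, adjusted p = 7.46e-09). Within RFP+ MHCIIhi, replicate 1 was the highest and replicate 4 the lowest for Krt10 and Ivl, as for Krtdap and the list's sum. Lor, loricrin, rose, at 9.65 ± 1.24 CPM in labelled and 3.93 ± 1.05 CPM in unlabelled cells, and Flg, filaggrin, was low in both, at 2.11 ± 0.766 CPM in labelled and 0.643 ± 0.251 CPM in unlabelled cells. The 2 that fell were Sprr3, at 1.88 ± 0.572 CPM in labelled and 4.33 ± 0.410 CPM in unlabelled cells (log2 -1.18, SE 0.36, adjusted p = 0.00996), and Dsg1a, a desmosomal cadherin (log2 -0.56, SE 0.08, adjusted p = 8.57e-06). Sprr and Klk genes have close relatives within their families, so their single values are less certain.

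Tuft cell genes rose almost without exception. Of 26, 25 rose and 0 fell, with a median of 2.18, beside 23.8% of all tested genes called higher. The gene without a call was Ascl2 (log2 0.22, SE 0.19, adjusted p = 0.357). Pou2f3, the transcription factor tuft cells require, was at 82.7, 73.6, 66.6 and 64.2 CPM in labelled replicates 1 to 4, and 16.6, 15.6, 13.0 and 14.8 CPM in unlabelled replicates 1 to 4 (log2 2.25, SE 0.13, adjusted p = 2.74e-12). Trpm5, the cation channel of taste transduction, was at 100.2, 86.4, 75.6 and 78.9 CPM in labelled and 17.0, 12.7, 13.2 and 14.2 CPM in unlabelled libraries (log2 2.57, SE 0.15, adjusted p = 1.48e-12). Dclk1, the kinase that marks tuft cells, differed less, at 113, 97.3, 86.8 and 89.8 CPM in labelled and 39.3, 37.6, 32.2 and 35.3 CPM in unlabelled libraries (log2 1.42, SE 0.16, adjusted p = 9.23e-08). The list's summed level was 1069.7, 928, 843 and 882 CPM in labelled replicates 1 to 4, and 236, 205, 201 and 222 CPM in unlabelled replicates 1 to 4, 4.31 times as high in the labelled gate. Il25, the tuft cell cytokine, was at 1.42 ± 0.405 CPM in labelled and 0.440 ± 0.274 CPM in unlabelled cells (log2 1.72, SE 0.35, adjusted p = 0.000284).

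Microfold cell genes rose in 9 of 10 cases, with a median of 1.58, beside 23.8% of all tested genes called higher. Gp2, the microfold receptor for bacteria, was at 311, 318, 321 and 267 CPM in labelled replicates 1 to 4, and 80.9, 80.0, 63.7 and 91.8 CPM in unlabelled replicates 1 to 4 (log2 1.94, SE 0.09, adjusted p = 1.05e-13). Ccl20, the CCR6 ligand, was at 146, 189.8, 184 and 208 CPM in labelled and 48.4, 55.5, 54.2 and 62.0 CPM in unlabelled libraries (log2 1.73, SE 0.14, adjusted p = 6.67e-10). The member that fell was Anxa5 (log2 -0.40, SE 0.07, adjusted p = 4.5e-05), a widely expressed annexin. Of 22 tested intestine and liver genes out of 23 listed, 16 rose and 2 fell, with a median of 1.16. Reg3g, an antimicrobial lectin of the gut, was at 2292, 2375, 2615 and 2454 CPM in labelled replicates 1 to 4, and 573, 513, 445 and 601 CPM in unlabelled replicates 1 to 4 (log2 2.19, SE 0.12, adjusted p = 5.25e-13). Apoa4, an intestinal apolipoprotein, was at 164, 162, 139 and 169.8 CPM in labelled and 47.2, 46.3, 50.3 and 47.4 CPM in unlabelled libraries (log2 1.73, SE 0.14, adjusted p = 5.68e-10). Saa3, an acute-phase gene, rose most (log2 3.09, SE 0.11, adjusted p = 2.62e-16), and Muc13, a gut surface mucin, followed (2.93, SE 0.10). Fgg, a fibrinogen chain, fell (log2 -0.45, SE 0.14, adjusted p = 0.0121). Without RFP+ MHCIIhi replicate 2, 1 gene of the list fell in place of 2. Fgb was at 10.1 ± 1.54 CPM in labelled and 14.1 ± 2.05 CPM in unlabelled cells without a call (log2 -0.48, SE 0.27, adjusted p = 0.152), and passed in the fit of 8 libraries (adjusted p = 0.00247). Saa and Reg3 genes are close relatives and may share reads.

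Counts for the other peripheral cell programmes stand beside 23.8% of all genes called higher and 21.2% called lower, and nothing about a programme is read from them. Of 16 tested genes of ciliated cells, 4 rose and 6 fell. Foxj1, the regulator of motile cilia, rose (log2 0.59, SE 0.10, adjusted p = 3.79e-05), as did Tppp3 (1.53, SE 0.13), whereas Myb (log2 -1.03, SE 0.10, adjusted p = 5.18e-09) and Mcidas (-0.86, SE 0.21), which act early in multiciliated cells, fell. Of 20 neuroendocrine genes, 6 rose and 2 fell. Chga, chromogranin A, was at 36.0 ± 5.55 CPM in labelled and 20.1 ± 1.78 CPM in unlabelled cells (log2 0.84, SE 0.22, adjusted p = 0.00316). Calca, calcitonin, fell (log2 -0.76, SE 0.11, adjusted p = 7.86e-06). Insm1 did not pass (log2 -0.20, SE 0.17, adjusted p = 0.344).

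Of 17 tested muscle genes, 2 rose and 5 fell. Ttn, titin, was at 228 ± 32.7 CPM in labelled and 477 ± 79.4 CPM in unlabelled cells (log2 -1.06, SE 0.12, adjusted p = 1.93e-07). Neither Myog, a muscle regulator (log2 0.38, SE 0.21, adjusted p = 0.142), nor Chrna1, the acetylcholine receptor subunit (log2 -0.36, SE 0.16, adjusted p = 0.0761), passed. Without RFP+ MHCIIhi replicate 1 or 3, or RFP- MHCIIhi replicate 1 or 2, 3 muscle genes fell in place of 5. Of 12 ionocyte genes, 4 rose and 2 fell, with 1 falling when any of 6 libraries was left out, namely RFP+ MHCIIhi replicates 2, 3 and 4 and RFP- MHCIIhi replicates 1, 2 and 3. Without RFP+ MHCIIhi replicate 2, 2 of them rose in place of 4. Cftr, the chloride channel, rose (log2 1.55, SE 0.10, adjusted p = 6.23e-12), and Foxi1, the ionocyte regulator, did not pass (log2 0.44, SE 0.19, adjusted p = 0.057). The shared fit counts the spread of the MHCIIlo libraries too, and in the fit of 8 libraries Myog, Chrna1 and Foxi1 passed (adjusted p = 0.0399, 0.012 and 0.000209).

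Of 10 tested antigens known to depend on Aire, out of 12 listed, 4 rose and 1 fell in the labelled gate. Over all tested genes the shares were 23.8% and 21.2%. Ins2, an insulin gene, was at 13.4, 11.8, 12.7 and 14.3 CPM in labelled replicates 1 to 4, and 4.73, 5.03, 7.67 and 5.68 CPM in unlabelled replicates 1 to 4 (log2 1.18, SE 0.21, adjusted p = 5.33e-05). Tff3, a goblet cell peptide gene, was at 54.6, 54.0, 49.7 and 52.0 CPM in labelled and 22.3, 26.1, 27.1 and 21.6 CPM in unlabelled libraries (log2 1.12, SE 0.19, adjusted p = 3.73e-05). Mucl2, a salivary gene, rose less (log2 0.63, SE 0.13, adjusted p = 0.000428), Spink1, a pancreatic trypsin inhibitor, rose most (log2 3.12, SE 0.14, adjusted p = 4.46e-14), and Csn1s2a, a casein gene, fell (log2 -0.50, SE 0.13, adjusted p = 0.0032). For these genes the groups did not overlap, which held for 25.0% of all genes in each direction. In the fit of 8 libraries 3 of the 10 fell. Of 7 antigens known to depend on Fezf2, 5 rose and 1 fell. Apoc3, a liver apolipoprotein, was at 58.1, 69.1, 60.9 and 73.5 CPM in labelled replicates 1 to 4, and 9.42, 9.36, 11.1 and 11.7 CPM in unlabelled replicates 1 to 4 (log2 2.66, SE 0.22, adjusted p = 6.84e-10). Ttr, transthyretin, rose (log2 2.88, SE 0.14, adjusted p = 1.07e-13), as did Calb1, calbindin, by less (log2 0.54, SE 0.17, adjusted p = 0.0103), a call lost when replicate 4 of both populations was left out (adjusted p = 0.0633), and Nol4 fell (log2 -0.40, SE 0.11, adjusted p = 0.00662). Of the pair listed as independent of Aire, Gad1, which makes GABA, fell (log2 -0.69, SE 0.17, adjusted p = 0.00154) and Crp, C-reactive protein, was at 13.0 ± 1.22 CPM in labelled and 11.1 ± 2.29 CPM in unlabelled cells (log2 0.24, SE 0.14, adjusted p = 0.171).

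Genes of basal or immature mTEC showed no common direction. Of 17 tested genes out of 18 listed, 7 rose and 6 fell, with a median of 0.15, beside 23.8% and 21.2% of all tested genes. Ccl21a, the chemokine of immature mTEC, had too few reads to be tested. Krt5, the basal keratin, was at 311, 252, 258 and 255 CPM in labelled replicates 1 to 4, and 229.5, 174, 169.8 and 181 CPM in unlabelled replicates 1 to 4 (log2 0.51, SE 0.11, adjusted p = 0.000322). Trp63, the basal cell regulator, was at 119 ± 8.27 CPM in labelled and 107 ± 4.82 CPM in unlabelled cells (log2 0.15, SE 0.08, adjusted p = 0.136), and passed in the fit of 8 libraries (adjusted p = 0.0415). The integrin gene Itgb4 (log2 -0.80, SE 0.07, adjusted p = 2.32e-09) and Pdpn, podoplanin (log2 -0.70, SE 0.14, adjusted p = 0.000195), fell. The increases were led by Dapl1 (log2 3.35, SE 0.10, adjusted p = 5.92e-17), Ly6a (2.07, SE 0.11), which encodes Sca-1, and Plet1 (1.89, SE 0.11). Among 7 general epithelial genes, 6 rose and 0 fell, from Krt8 (log2 0.22, SE 0.08, adjusted p = 0.0347) to Cldn3 (log2 1.68, SE 0.11, adjusted p = 1.24e-11), a tight junction claudin. The Krt8 call was lost under library totals (adjusted p = 0.187) and under DESeq2-type size factors (adjusted p = 0.0661), without RFP+ MHCIIhi replicate 1 or 4 (adjusted p = 0.124 and 0.122), and without RFP- MHCIIhi replicate 2, 3 or 4 (adjusted p = 0.0768, 0.173 and 0.0706).

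Markers of other cells that a CD45- EPCAM+ gate could carry were found in both gates, and in each list fewer than 45.0% of the tested genes, the share over all genes, were called. Of 9 B cell genes, 2 rose and 1 fell, and their summed level was 68.5 ± 2.50 CPM in labelled and 54.1 ± 2.38 CPM in unlabelled cells. Cd79a, a defining gene, was at 1.31 ± 0.436 CPM in labelled and 1.79 ± 0.289 CPM in unlabelled cells. The genes called were Cd79b (1.02), Vpreb3 (0.65) and Cd22 (-0.74), the fall of Cd22 being lost without RFP+ MHCIIhi replicate 2, 3 or 4 or RFP- MHCIIhi replicate 2, and 1 of the rises without RFP+ MHCIIhi replicate 1. Of 16 myeloid and dendritic cell genes, 4 rose and 1 fell, with a summed level of 755 ± 13.1 CPM in labelled and 553 ± 37.8 CPM in unlabelled cells. Lyz2, lysozyme, was at 526 ± 11.1 CPM in labelled and 372 ± 37.8 CPM in unlabelled cells (log2 0.50, SE 0.12, adjusted p = 0.00141). Itgax, the dendritic cell integrin, was at 1.66 ± 0.218 CPM in labelled and 2.30 ± 0.486 CPM in unlabelled cells. Of 9 tested mesenchymal genes, 0 rose and 3 fell, and 1 fell when any library was left out. The list's summed level was 167 ± 11.8 CPM in labelled and 290 ± 27.0 CPM in unlabelled cells. Thy1, which is also a thymocyte gene and on both lists, was at 25.2 ± 5.18 CPM in labelled and 112 ± 27.8 CPM in unlabelled cells (log2 -2.16). Col1a1, a fibroblast collagen, was at 26.1 ± 1.64 CPM in labelled and 44.3 ± 3.97 CPM in unlabelled cells (log2 -0.76, SE 0.31, adjusted p = 0.048). Endothelial genes included 1 that rose, Tek (0.97), and 2 that fell, Cdh5 (-1.08) and Esam (-0.86), among 10, with Pecam1 at 9.01 ± 0.786 CPM in labelled and 10.8 ± 2.74 CPM in unlabelled cells. Of 4 tested erythroid genes 1, Hbb-bt, fell (log2 -0.69, SE 0.28, adjusted p = 0.0455), a call lost when any library was left out. Hbb-bs was at 1.72 ± 0.527 CPM in labelled and 1.78 ± 0.194 CPM in unlabelled cells.

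Immediate early and heat shock genes differed between the gates as well, whereas summed mitochondrial measures overlapped. Of 13 immediate early and heat shock genes, 9 rose and 0 fell, with a median of 0.31, beside 23.8% of all tested genes called higher. Fos was at 116, 123, 139 and 150.1 CPM in labelled replicates 1 to 4, and 80.3, 75.8, 78.9 and 77.4 CPM in unlabelled replicates 1 to 4 (log2 0.76, SE 0.10, adjusted p = 1.02e-06). Of 7 tested mitochondrial genes out of 13 listed, 3 rose, 0 fell and 4 were not called, with mt-Nd1 at 1716 ± 126 CPM in labelled and 1369 ± 119 CPM in unlabelled cells (log2 0.33, SE 0.09, adjusted p = 0.00357). The list's summed level was 10744 to 12339 CPM in labelled and 9622 to 11089 CPM in unlabelled libraries. Mitochondrial ribosomal RNA took 29.3 to 32.7% of the reads in labelled and 32.3 to 35.8% in unlabelled libraries. The part of these measures in the other results was not tested. Genes reaching 1 CPM numbered 17212 ± 56.8 in RFP+ MHCIIhi libraries and 17345.5 ± 101 in RFP- MHCIIhi libraries (SD, n = 4 each). The difference of -133.5 genes did not pass a two-sided exact permutation test over the 8 libraries (p = 0.0857), in which 0.0286 is the smallest p that 4 against 4 can give. It did at 0.5 CPM, where it was -350.5 (exact permutation p = 0.0286).

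Set beside the MHCIIlo gates, the genes that distinguished the labelled MHCIIhi cells did not all follow MHC class II. Among MHCIIlo cells Krt10 averaged 319 ± 84.2 CPM with the label and 26.4 ± 7.59 CPM without it, and Krtdap 854 ± 101 CPM with the label and 94.6 ± 16.8 CPM without it. Ccl22 averaged 73.8 ± 12.0 CPM in labelled MHCIIlo cells and 19.8 ± 9.99 CPM in unlabelled MHCIIlo cells, below both MHCIIhi means, and so did Cd86, at 4.64 ± 2.16 CPM in labelled and 1.78 ± 0.876 CPM in unlabelled MHCIIlo cells. The summed tuft level was 5499 ± 932 CPM in labelled MHCIIlo cells and 2649.7 ± 538 CPM in unlabelled MHCIIlo cells, both above RFP+ MHCIIhi at 931 ± 98.9 CPM. Summed G2 and M genes stood at 148 ± 54.4 CPM in labelled MHCIIlo cells and 414 ± 143 CPM in unlabelled MHCIIlo cells, so RFP- MHCIIhi was the highest of the 4 populations. The same held for the summed cTEC genes, at 894 ± 58.0 CPM in labelled and 2022 ± 146 CPM in unlabelled MHCIIlo cells, and for the thymocyte genes, at 304 ± 87.3 CPM in labelled and 199.8 ± 36.2 CPM in unlabelled MHCIIlo cells (SD, n = 4 each). Within the cTEC sum of unlabelled MHCIIlo cells, Ctsl averaged 764 ± 67.6 CPM and Psmb11 18.4 ± 5.32 CPM. These levels are a description, and no difference between MHC class II gates was tested.

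**Figure D5:**
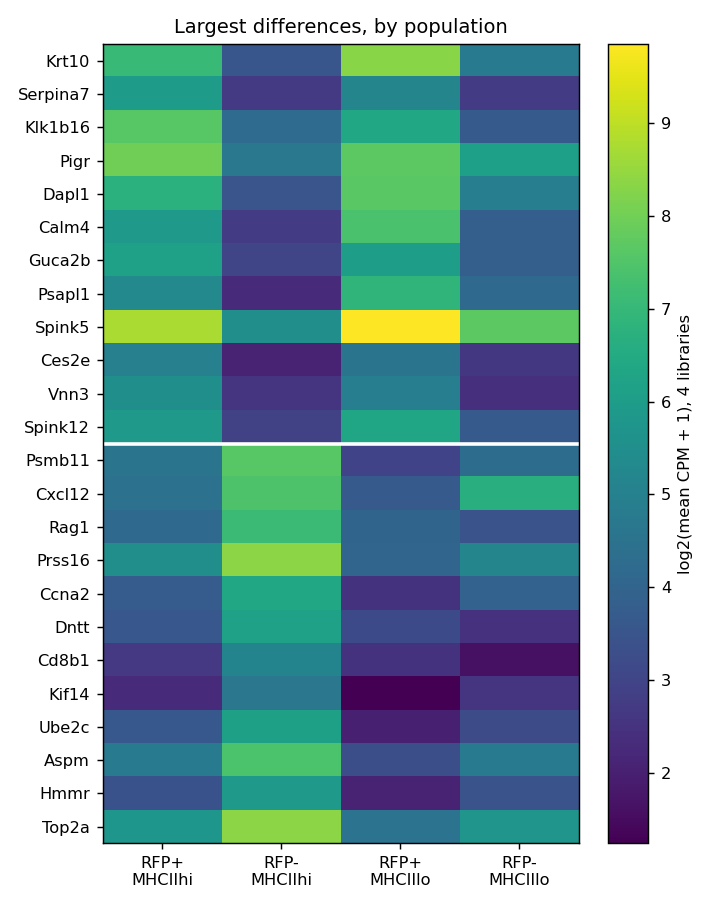
Mean level of the 12 largest increases (above the white line) and 12 largest decreases (below it) named by rule, in the 4 populations, as log2 of the mean CPM of 4 libraries + 1. The increases are high in RFP+ MHCIIhi and in most cases also in RFP+ MHCIIlo, and the decreases are highest in RFP- MHCIIhi.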

How the data were processed

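RNA sequencing of sorted thymic epithelial cells was analysed in 16 libraries, of which 8 are compared. The authors deposited whole-number read counts for 43432 Ensembl genes. The submitters' processing notes name STAR, DESeq2 and GRCm38, without versions. Per the labels' protocols, poly(A) RNA was amplified with NuGen Ovation V2 and made into Nextera XT libraries. The counting tool and its annotation and strand setting were not given in the sources read, which leaves overlapping, antisense and closely related genes uncertain. Symbols and coordinates are from GENCODE M21 and promoters from RefSeq (GRCm38.p6).

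Counts were tested in R 4.3.3 with edgeR 4.0.16: filterByExpr (minimum count 10, minimum total 15) left 19617 genes, libraries were TMM-scaled, and the quasi-likelihood test used 1 fit of all 16 libraries with a mean per population and Benjamini-Hochberg adjustment (threshold 0.05). The SE is the difference divided by the root of the F statistic. Fits were tested on simulated data. Over 12 pairs of libraries of a population, a chi-square statistic divided by its degrees of freedom ran from 3.20 to 8.82. A library sequenced again would give a value near 1, and an exact copy a lower one.

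Named genes are a marker per list or more and the 12 largest called changes per direction with at least 20 CPM and no overlap, passing over predicted genes and receptor segments; other list members were named after their values were seen. The comparison, its genes and lists were chosen with earlier results of these data known. Lists carry no test of their own. A few list members are counted but not reported here by name. Alternatives were DESeq2-type scaling, library totals, mitochondrial genes left out, no filter, 8 libraries, a replicate block, DESeq2 1.42.0, each library left out, and replicate 4 of both populations left out together, the last chosen after seeing the data.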

Additional observations from a re-analysis of the deposited data

Results flagged for a closer look

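Of 262 sets of 4 libraries examined (named genes, summed lists and library measures in each population), 17 held a library far from the other 3, and chance alone gives about 1 in 20. In labelled replicate 4, Psmb11 stood at 39.8 CPM (15.7 to 19.0 in the others) and Cxcl12 at 32.3 CPM (16.1 to 18.5). Dntt stood at 20.0 CPM (7.56 to 8.34), Cd8a at 15.7 CPM (7.99 to 9.04), Cd8b1 at 8.84 CPM (3.90 to 4.60) and Ube2c at 13.4 CPM (10.2 to 10.5). In the same library the summed thymocyte genes stood at 538 CPM (378 to 392) and the mesenchymal genes at 185 CPM. Labelled replicate 1 was apart for Top2a (50.3 CPM, low), Cdkn1c (221 CPM, high) and Krt5 (311 CPM, high), and labelled replicate 2 for the ribosome production genes (575 summed CPM, low).

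Among unlabelled libraries, replicate 2 was apart for Psapl1 (4.39 CPM, high), replicate 3 for Insm1 (95.1 CPM, high) and the ciliated genes (375 summed CPM, high), and replicate 4 for Cd274 (180.4 CPM, high) and the mTEC regulators (4223 summed CPM, low).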

How the results depend on the processing

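The counts of genes called higher and lower, and of G2 and M, cTEC and thymocyte genes called, stayed within 1.5 times under all 16 alternatives. Calls in either direction numbered 8830 as reported, 7336 without replicate 4 of both populations and 10995 in the fit of the 8 MHCIIhi libraries, and the share of calls that were higher ran from 45.9% with library totals to 55.1% with no filter, against 52.9%. Of 94 named genes, 79 kept their direction and call under every alternative. Fezf2 changed sign with mitochondrial genes left out (0.00767), no filter (0.0240), 8 libraries (0.0104) and a replicate block (0.000974), and ran from -0.0734 to 0.0306 with 1 library left out. With library totals Tnfrsf11a stood at -0.0214 and Ctss at -0.00291; with 1 library left out Tnfrsf11a ran from -0.0111 to 0.0867 and Hbb-bs from -0.207 to 0.0806. None of these was called. The Col1a1 call was lost with DESeq2 (adjusted p = 0.14) and when any 1 library was left out. The cause was not tested.

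The difference in genes detected passed its exact permutation test (p = 0.0286) at 0.5 CPM (-350.5) and with counts thinned to the smallest library (-433.75), and ran from -169 to -97.3 with 1 library left out, passing without unlabelled replicate 4. Replicate numbers were checked for pairing: deviations from the population means correlated at 0.153, 0.0652, -0.00722 and 0.155 for replicates 1 to 4. Replicate 3 did not correlate best with its own number, and the main fit used no pairing. Some levels did follow the number. The summed cTEC and thymocyte genes were highest in replicate 4 of both populations. Icosl was at 428, 695, 529 and 705 CPM in labelled replicates 1 to 4. In unlabelled replicates 1 to 4 Icosl was at 998, 1598, 1156 and 1637 CPM. The summed G2 and M genes were highest in labelled replicate 4 but unlabelled replicate 2. Whether libraries of a number shared a pool or a day was not tested. With the replicate block 9012 genes were called, and Aire passed (adjusted p = 0.0202). Arms of 3 libraries were fitted with the spread shared by the other populations. Depth limits genes under the count minimum, such as Ccl21a.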
